A study of Homo sapiens with 14 samples.

Results

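I10 and I79 are the names that the labels give to a pair of cultures, here called isolates, of IMR90, an established line of human fetal lung fibroblasts. Both isolates were profiled at an early passage (young, proliferating) and after passaging to replicative senescence (old), with no drug and no knockdown. The comparison asks which genes differed between the isolates in the same direction in both passage states. The labels name 8 of the 14 samples of the series for these groups, 2 for each isolate and state, but 1 table per isolate and state was deposited. Each of these 4 columns was therefore used as 1 value with no SD and no n. The labels do not say what sets the isolates apart, so isolate, culture history and handling cannot be told apart. RNA was selected for poly(A), and in bulk RNA fewer cells of a type and less RNA per cell cannot be told apart.

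Of 14394 genes described, 129 were past 0.6 on the log2 scale in both states in the direction of I10 (0.896%) and 126 in the direction of I79 (0.875%), 255 genes in all. The log2 ratio is that of I10 over I79 in CPM (counts scaled to an equal effective library size by TMM), with a prior count of 2. No gene was called when the isolates were tested over both states: 0 of 15135 genes tested (0%) passed an adjusted p under 0.01 with an absolute log2 fold change over 0.6 in edgeR's quasi-likelihood fit with passage state as covariate. The smallest adjusted p in this edgeR test was 0.224, for ZC3H6, and 576 genes had an unadjusted p under 0.05. ZC3H6 is one of the genes set apart in the next paragraph. In edgeR's test without those genes the smallest adjusted p was 0.783, and 551 genes had an unadjusted p under 0.05. Without the filter on low counts, edgeR's test called 215 genes, genes tested here among them. DESeq2's Wald test on the same columns called 14 genes (0.115% of the 12200 to which it gave an adjusted p). Of these, 6 were set apart for the reason given in the next paragraph, and the other 8 were FLT1, UACA and CORIN, higher in I10, and COL4A5, COL4A6, IGF2, KISS1 and CXCL10, higher in I79. Fitted without the genes set apart, DESeq2 called 5 of these, FLT1, COL4A6, IGF2, KISS1 and CXCL10. The p-values measure how alike the isolate difference was in the young and in the old columns, not a spread over independent isolates.

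Some genes were set apart, by a rule made after the values were seen. The tables list transcripts gene by gene, and 4791 of their 205256 transcript IDs are not in the annotation used here to sum them, so their reads cannot be given to a gene. A gene was set apart where such an ID beside it held at least 10 reads and at least 10% of the gene's own reads in a column, which held for 741 of the genes tested. ZC3H6 had 164 and 531 counts in I79 young and old against 19 and 45 in I10 young and old, while the ID beside it held 0 and 0 counts in I79 and 219 and 420 in I10. SERAC1 had 281 and 232 counts in I79 against 97 and 56 in I10, and the ID beside it 0 and 0 against 285 and 232. For SFXN3 the order was the other way, with 225 and 258 counts in I79 against 974 and 1405 in I10, and 825 and 1107 against 265 and 0 beside it. In other genes set apart, the reads beside them were too few to make up the difference. PRUNE2 had 257 and 538 counts in I79 and 660 and 1239 in I10, with 33 and 42 beside it in I79 and 0 and 0 in I10. UNC5C had 183 counts in I79 old and 18 in I10 old, with 0 and 0 beside it. These genes and ELFN2 are the 6 that DESeq2 called and that are not described further. With all the genes set apart included, 144 and 143 genes were past 0.6 in both states, higher in I10 and in I79.

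Collagen IV of basement membranes is a trimer whose chains are encoded by genes that lie in head-to-head pairs, each pair sharing the stretch between its starts. COL4A5 and COL4A6 form the pair on chromosome X. IGF2 is an imprinted fetal growth factor, FLT1 a receptor of VEGF, CORIN a membrane serine protease that processes natriuretic peptide, and MET the receptor of hepatocyte growth factor. Fibroblasts at replicative senescence are known to lose proliferation genes and HMGB2, and to gain CDKN1A and secreted inflammatory factors.

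The promoter windows of COL4A5 and COL4A6 are shown because the genes stood lower in I10 together. They are RefSeq sequences on GRCh38.p14 from 250 bases before to 50 after a start, written in the direction of the gene, with each CG in capitals. The window of COL4A5 is chrX:108439588-108439887 on the plus strand, and the window of COL4A6 that faces it is chrX:108439409-108439708 on the minus strand.
COL4A5: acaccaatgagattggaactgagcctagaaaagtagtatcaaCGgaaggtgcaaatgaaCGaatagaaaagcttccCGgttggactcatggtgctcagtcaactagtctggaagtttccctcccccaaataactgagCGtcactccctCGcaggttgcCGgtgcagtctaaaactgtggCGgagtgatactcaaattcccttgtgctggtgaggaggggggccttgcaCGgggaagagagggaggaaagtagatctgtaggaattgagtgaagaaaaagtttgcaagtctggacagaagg
COL4A6: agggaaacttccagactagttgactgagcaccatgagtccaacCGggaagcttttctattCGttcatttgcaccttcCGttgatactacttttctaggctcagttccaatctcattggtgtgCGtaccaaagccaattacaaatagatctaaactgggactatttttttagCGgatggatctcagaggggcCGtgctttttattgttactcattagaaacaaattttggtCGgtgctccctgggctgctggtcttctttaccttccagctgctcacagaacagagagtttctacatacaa
The windows overlap by 121 bases and hold 8 and 7 CG, against a median of 14 over 35116 promoter windows of the same length. Both hold CCAAT on either strand, as do 34.6% of all windows, and neither holds TATAAA (11.5% of all) or GGGCGG (45.0% of all) on either strand. A second RefSeq start of COL4A6 lies outside the overlap, and its window holds GGGCGG but not CCAAT or TATAAA. Which of these starts the counted COL4A6 transcripts use was not examined.

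COL4A6 (GRCh37 chromosome X, 107398837 to 107682727, minus strand) had 551 counts in I79 young, 276 in I10 young, 943 in I79 old and 358 in I10 old. In CPM the values were 35.3, 14.4, 51.2 and 19.8, so that both I10 columns lay below both I79 columns. The log2 ratio was -1.29 in the young columns (95% interval -1.51 to -1.08) and -1.36 in the old columns (-1.55 to -1.19). Intervals are exact Clopper-Pearson intervals of the I10 share of a gene's counts in a state and cover counting error only. Over both states the log2 fold change was -1.33 (SE 0.12, adjusted p 0.529 in the edgeR fit and 8.77e-04 in DESeq2).

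COL4A5 (chromosome X, 107683068 to 107940775, plus strand) had 2129, 1643, 4291 and 2008 counts in I79 young, I10 young, I79 old and I10 old. The CPM values were 136, 85.7, 233 and 111. Its log2 ratio was -0.67 (-0.76 to -0.58) in the young and -1.07 (-1.15 to -0.99) in the old columns. The fit gave -0.87 (SE 0.14, adjusted p 0.959 by edgeR's test, 0.00599 by DESeq2). Each of the 4 COL4A5 transcripts with at least 50 counts in a column was lower in I10 in both states, among them COL4A5-201 with 930, 705, 2304 and 934 counts and COL4A5-202 with 931, 733, 1675 and 906. COL4A6-201 held most COL4A6 reads, with 435, 260, 896 and 342 counts. COL4A6-202 had 84, 0, 0 and 0 counts, so that 1 of the 2 COL4A6 transcripts was lower in I10 in both states. The other described collagen IV genes were not past 0.6 in either state. COL4A1 had ratios of -0.51 in young and 0.37 in old, and COL4A2 had -0.37 and 0.10. Among 21 described collagen genes, COL4A5 and COL4A6 were past 0.6 in both states, with list medians of -0.09 in young and 0.09 in old. In the direction of I79, 0.875% of all genes described were past 0.6 in both states.

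**Figure D1:**
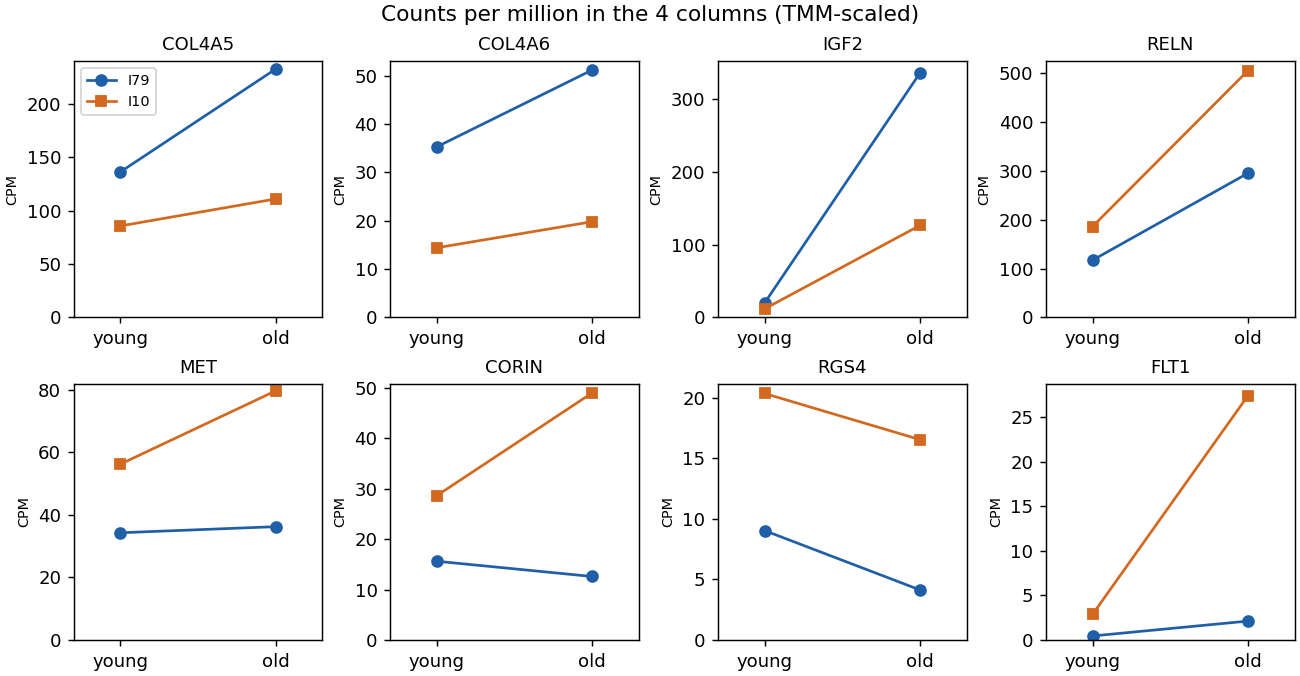
TMM-scaled CPM (vertical axes, from 0) in the young and old columns of I79 (circles) and I10 (squares) for 8 genes, 1 column per point and no error bar. COL4A5, COL4A6 and IGF2 lie lower in I10 in both states, and RELN, MET, CORIN, RGS4 and FLT1 lie higher.

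The other named genes higher in I79 follow. IGF2 (chromosome 11, 2150342 to 2179621, minus strand) had 311 and 225 counts in I79 and I10 young and 6185 and 2285 in I79 and I10 old. The old column stood above the young one by 4.07 on the log2 scale in I79 and by 3.42 in I10, and the ratio between isolates was -0.76 (-1.02 to -0.51) in young and -1.41 (-1.48 to -1.34) in old. The log2 fold change over both states was -1.13 (SE 0.18, adjusted p 0.959 by edgeR's test, 6.17e-04 by DESeq2). All 4 IGF2 transcripts with at least 50 counts in a column pointed the same way, but annotated genes on the same strand, INS-IGF2 among them, overlap IGF2 and may share its reads.

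CCN4, a matricellular target of WNT signalling, had 448, 282, 2193 and 1151 counts in I79 young, I10 young, I79 old and I10 old, and ratios of -0.96 and -0.90. TNFRSF21, a death domain receptor, had 549, 401, 1335 and 571 counts, with ratios of -0.75 and -1.2. CHL1, a neural adhesion molecule of the L1 family, had 204, 161, 1433 and 496 counts, and ratios of -0.63 and -1.5. In each of these the old column of each isolate lay above the young column of the same isolate. FGFR4, a fibroblast growth factor receptor, had 470, 273, 363 and 234 counts and ratios of -1.07 and -0.60. It was the gene just inside the threshold among protein-coding genes averaging 100 counts or more, followed by FRZB and SAMD12. Just outside stood TRPC6, ALS2CL and CCN3, whose smaller ratios were 0.60 in size. PDE10A, a cyclic nucleotide phosphodiesterase, had 498, 391, 727 and 460 counts and ratios of -0.64 and -0.63. Of its 4 transcripts with at least 50 counts in a column, 2 were lower in I10 in both states.

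KISS1 and CXCL10 were nearly uncounted in the young columns. KISS1, the kisspeptin precursor, had 9 and 5 counts in I79 and I10 young but 1292 and 264 in old, a ratio of -2.25 (-2.46 to -2.07) in old and an interval from -3.07 to 0.59 in young. CXCL10, an interferon-induced chemokine, had 3 and 1 counts in young, where no difference was detectable at this depth, and 351 and 18 in old (-5.03 to -3.58 around -4.11). ART3, on the other strand, overlaps CXCL10. Both genes were DESeq2 calls, at adjusted p of 0.00235 and 0.00279.

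Among the named genes higher in I10, FLT1 had the largest ratio in each state. FLT1 (chromosome 13, 28874483 to 29069282, minus strand) had 7 counts in I79 young, 55 in I10 young, 39 in I79 old and 496 in I10 old. The ratio was 2.41 (1.54 to 4.06) in young and 3.63 (3.22 to 4.21) in old, and 3.42 over both states (SE 0.31, adjusted p 0.529 by edgeR's test, 2.86e-06 by DESeq2). In TPM, which is per length, FLT1 stood at 0.12, 1.04, 0.49 and 8.68 in I79 young, I10 young, I79 old and I10 old, a level far below that of the I10 old column in the other columns. Its 3 transcripts with at least 50 counts in a column were all higher in I10 in both states. Of the VEGF family genes described in the growth factor signalling list, VEGFA had ratios of 0.005 and -0.15 and VEGFC 0.28 and 0.15, none past 0.6. Other genes of that family were not examined here.

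CORIN (chromosome 4, 47596016 to 47840123, minus strand) had 244 and 549 counts in I79 and I10 young and 232 and 887 in I79 and I10 old. The log2 ratio of old over young was -0.31 in I79 and 0.77 in I10. The isolate ratio was 0.87 (0.65 to 1.10) in young and 1.95 (1.75 to 2.18) in old, with 1.42 over both (SE 0.28, adjusted p 0.959 by edgeR's test, 0.00977 by DESeq2). RGS4, a regulator that speeds the shut-off of G protein signalling, had 141, 390, 76 and 299 counts and ratios of 1.16 and 1.97. TRIM55, a muscle ring finger protein, had 40, 154, 20 and 140 counts and ratios of 1.61 and 2.71. In CORIN, RGS4 and TRIM55 the I10 columns lay above the I79 columns, also across states. A lncRNA on the other strand overlaps CORIN.

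Receptors and channels of the cell surface were also found here. MET had 535, 1077, 667 and 1440 counts, with ratios of 0.71 (0.56 to 0.87) and 1.14 (1.00 to 1.27). PIEZO2, a mechanically gated channel, had 421, 900, 467 and 945 counts and ratios of 0.80 and 1.04. SLC38A5, an amino acid transporter, had 158, 304, 99 and 256 counts and ratios of 0.64 and 1.38. PLXDC2, a transmembrane protein with a plexin domain, had 210, 440, 71 and 172 counts, ratios of 0.77 and 1.28. APCDD1, an inhibitor of WNT signalling, had 114, 268, 78 and 174 counts, with 0.93 and 1.16. BACE2, an aspartyl protease, had 459, 881, 223 and 505 counts, ratios of 0.64 and 1.2. For all 6 the ratio was larger in the old than in the young columns. Over all genes described, too, more were past 0.6 in old (16.6%) than in young (7.61%).

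Matrix genes of this set included RELN, the secreted glycoprotein reelin, the most deeply counted of the named genes. RELN had 1831 and 3570 counts in I79 and I10 young and 5447 and 9152 in I79 and I10 old, so that the ratio was 0.67 (0.59 to 0.75) in young and 0.78 (0.73 to 0.82) in old. The fit gave 0.72 (SE 0.11, adjusted p 0.959 by edgeR's test, 0.0137 by DESeq2). RELN-201 held 1830, 3558, 5287 and 9127 of these counts. XYLT1, which starts the sugar chains of proteoglycans, had 550, 1084, 464 and 755 counts and ratios of 0.68 and 0.73. ADAMTSL1, a secreted ADAMTS-like protein, had 87, 210, 132 and 361 counts, ABI3BP 63, 152, 77 and 134, and LRRC15, a membrane protein of activated fibroblasts, 188, 387, 211 and 322. The ratios were 0.96 and 1.46 for ADAMTSL1, 0.96 and 0.81 for ABI3BP, and 0.74 and 0.63 for LRRC15.

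CCL2, a chemokine that attracts monocytes, had 218, 484, 1654 and 2553 counts and ratios of 0.85 and 0.65. It was among the 4 inflammatory genes past 0.6 in the direction of I10 in the old columns, where 16 were past it in the other direction.

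UACA, an apoptosis-linked ankyrin repeat protein, had 2389, 4516, 3750 and 7567 counts, ratios of 0.62 (0.55 to 0.70) and 1.04 (0.98 to 1.10), and an adjusted p of 0.00508 by DESeq2. The formin FMN1, which nucleates actin, had 93, 238, 804 and 1297 counts and ratios of 1.05 and 0.72. MYBL1, a MYB-type transcription factor, had 540, 1239, 501 and 859 counts, with 0.90 and 0.80, and MCTP2, a calcium-binding membrane protein, 75, 154, 315 and 615 counts, with 0.73 and 0.99. THBS1-IT1 had 53, 100, 98 and 186 counts but lies inside THBS1 on the same strand, whose ratios were 0.10 and 0.63. Its reads cannot be separated from that gene here.

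**Figure D2:**
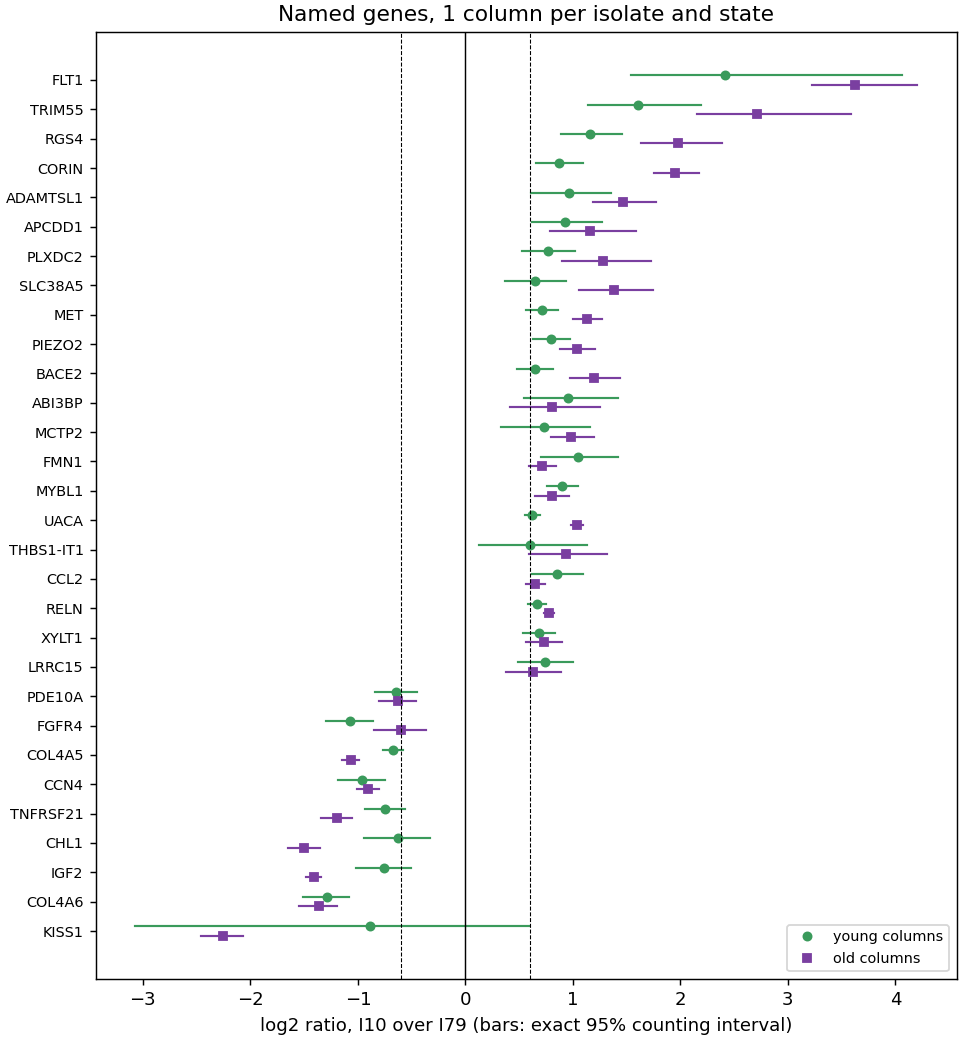
Log2 ratio of I10 over I79 (horizontal axis) in the young columns (circles) and old columns (squares) for 30 named genes. CXCL10 is left out for its width, bars are exact 95% counting intervals, and dashed lines mark 0.6. The genes were chosen for ratios past 0.6 in both states, and the young interval of KISS1, from -3.07 to 0.59, is the widest.

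The rule behind the named genes took 32, 22 higher in I10 and 10 higher in I79, and was set after the values were seen: past 0.6 in both states with at least 100 counts in both columns of the higher isolate, or called by DESeq2, and not set apart. The ratio was larger in size in the old than in the young columns in 23. Ratios were wider in old over all genes described as well, with 16.6% past 0.6 there against 7.61% in young. Of the 10 higher in I79, 9 stood higher in old than in young in both isolates, as did 9 of the 22 higher in I10, of which 10 stood lower in old in both. These counts are descriptions with no test, and the shares of all genes that rose or fell with passage are not given beside them. Of 76 transcripts of the 32 genes with at least 50 counts in a column, 66 pointed the same way as their gene in both states. The genes were chosen on sums of these transcripts, so such agreement was largely fixed by the rule, also where single genes are described. It goes by sign alone, so that CHL1-202, with 0 and 0 counts in I79 and I10 young, was tallied as agreeing.

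Most of the 255 genes were thinly counted. The median of their mean counts over the 4 columns was 25.5 for those higher in I10 and 21 for those higher in I79, against 343 over all genes described. A mean of 100 counts was reached by 26 of the 129 and 17 of the 126. Protein-coding genes were 90 and 89, or 69.8% and 70.6%, against 84.9% of all genes described. A column at 0 occurred in 10 of each group. The counting interval excluded 0 in both states for 58 of the 129 and 56 of the 126, or 45.0% and 44.4%. For the rest, a difference in both states was not beyond counting error. Of all genes described, 7.39% had intervals that excluded 0 in the same direction in both states, but the 255 were chosen on these ratios.

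Some lightly counted members lay next to each other. KCNJ8 and ABCC9, which encode the pore and the sulfonylurea receptor of the same potassium channel and lie side by side on chromosome 12, were both higher in I10. KCNJ8 had 55, 115, 20 and 53 counts in I79 young, I10 young, I79 old and I10 old, with ratios of 0.75 and 1.34, and ABCC9 had 47, 99, 29 and 74 counts, with 0.76 and 1.32. CXCL5 and CXCL3, neighbouring chemokine genes on chromosome 4, were lower in I10, with at most 14 counts in any column. Of 11 pairs of members adjacent among the genes described, 7 shared a direction and 4 did not. TNFSF13 and the readthrough gene TNFSF12-TNFSF13, one of the 4, overlap and had ratios of opposite sign, so both are uncertain, since the counting could split their reads. Among genes outside the named set, NFASC, an axonal adhesion protein, had 11, 49, 9 and 95 counts, and SCN2A, a sodium channel, 45, 159, 8 and 21. PTGDS, the prostaglandin D2 synthase, had 82, 43, 331 and 106 counts and was higher in I79. The homeobox gene MSX2, also higher in I79, had 78, 51, 422 and 210. The genes named in this paragraph were picked after their values were seen.

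Past 0.6 in either direction were 1096 genes in the young columns (7.61%) and 2386 in the old columns (16.6%). Across the 14394 genes the Pearson r of the log2 ratios in young and in old was 0.01 and the Spearman rho 0.04. Genes are not independent replicates, so no p is attached. Past 0.6 in opposite directions were 234 genes (1.63%), 166 of them higher in I10 in young and lower in old, and 68 the other way. Past 1 in both states were 26 genes higher in I10 and 31 higher in I79.

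**Figure D3:**
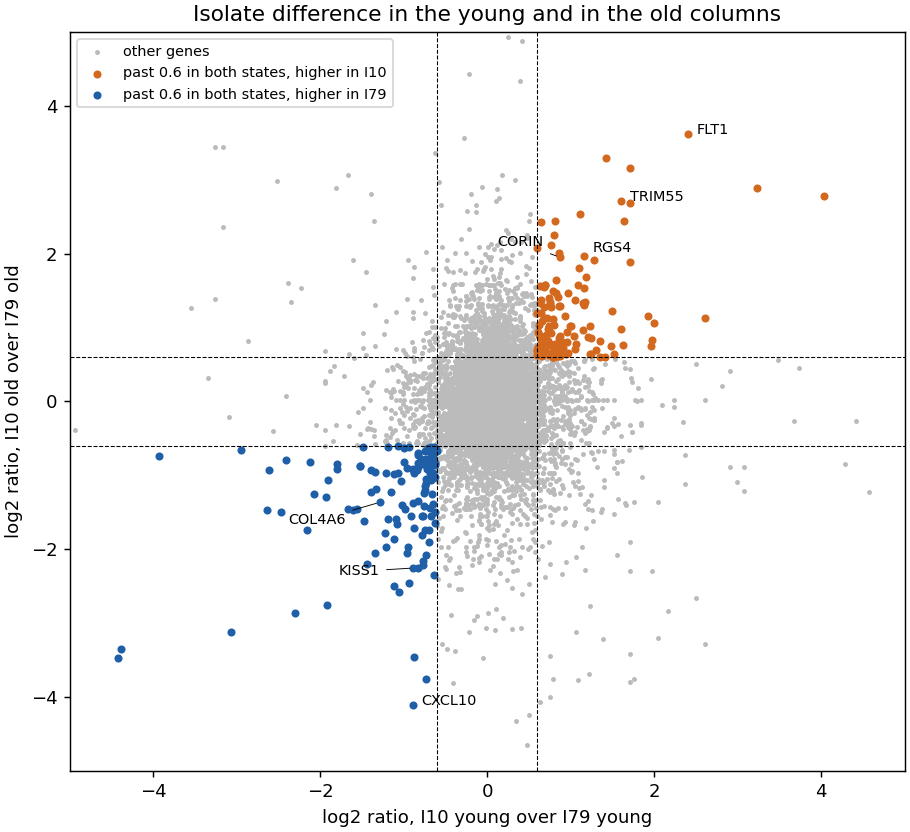
Log2 ratio of I10 over I79 in the young columns (horizontal) against the old columns (vertical), 1 point per gene. Coloured points are the genes past 0.6 (dashed lines) in both states, and 5 genes lie outside the axes. The cloud is taller than it is wide, and the coloured corners hold 129 genes higher in I10 and 126 higher in I79.

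Gene lists set these members in the context of senescence. No member of any of the 31 lists was called by edgeR's test, as no gene was. Of 31 described cell cycle genes, 19 were past 0.6 in the direction of I10 in the old columns and 0 in the young columns, against 7.73% and 4.61% of all genes described past it in that direction in old and in young. The list medians were 0.85 and 0.10, beside -0.0037 and 0.0053 over all genes described, old first. MKI67, the proliferation marker Ki-67, had 3033 and 4374 counts in I79 and I10 young (ratio 0.23) and 402 and 979 in old (1.31). CCNB1, the mitotic cyclin B1, had 1944, 2513, 341 and 725 counts, with ratios of 0.08 and 1.11. The replication licensing gene MCM2 differed from these, with ratios of 0.17 and -0.23, and was not alone. Of the 31 genes, 23 had a ratio above 0 in old. The others were MCM2, MCM3, MCM5, MCM6, MCM7, CDT1, PCNA and TYMS, from -0.06 for MCM7 to -0.50 for PCNA. LMNB1, the lamin lost at senescence, had ratios of 0.19 and 0.75, and HMGB2 0.22 and 0.28. HMGB1 stood at 486, 483, 171 and 191 CPM in I79 young, I10 young, I79 old and I10 old.

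Most inflammatory and secreted factors stood lower in I10 in the old columns, with 16 of 25 past 0.6 in that direction, against 8.85% of all genes described. In the young columns 3 were past it in that direction, against 3.01% of all, and 3 in the other. The list medians were -0.81 in old and 0.03 in young. Some of the 16 were thinly counted in old. CXCL6 had 3 and 1 counts there in I79 and I10, CXCL2 6 and 0, CXCL5 10 and 2, and CXCL3 12 and 6. C3, the central complement protein, had 106 and 166 counts in I79 and I10 young and 1467 and 70 in old, with ratios of 0.35 and -4.32. IL1B had 197, 257, 85 and 8 counts and CXCL8 85, 96, 341 and 43. CCL2 stood higher in I10 in both states, and VCAM1, an adhesion receptor for leukocytes, had ratios of -0.64 in young and 1.44 in old. Interferon response genes had medians of 0.04 and -0.62 (15 genes), antigen presentation genes -0.0045 and -0.55 (12 genes), and p53 targets 0.05 and -0.38 (25 genes). CDKN1A, the p53 target that encodes p21, stood at 354, 341, 2350 and 1607 CPM, and GDF15 had ratios of -0.25 and -2.04. These measures of passage state differed between the isolates in the old columns, and their part in the ratios of the 255 genes was not tested.

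**Figure D4:**
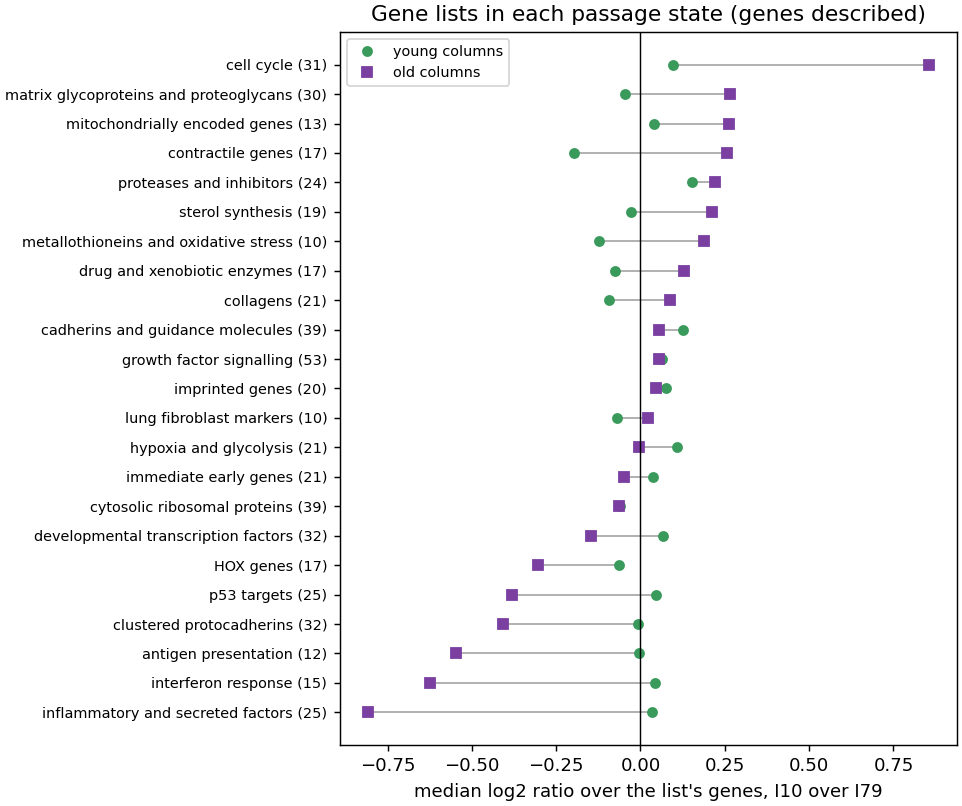
Median log2 ratio of I10 over I79 (horizontal axis) in the young columns (circles) and old columns (squares) for each gene list with at least 10 described genes, their number in brackets. Cell cycle genes lie highest in the old columns at 0.85 and inflammatory genes lowest at -0.81, while the young medians of these lists are 0.10 and 0.03.

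No list held more than 4 members past 0.6 in the same direction in young and in old. Inflammatory and secreted factors held 4 of 25, 2 higher in I10, CCL2 among them, and 2 higher in I79. The latter were CXCL3 and CXCL5, with at most 14 counts in any column. Growth factor signalling held 4 of 53, CHRDL1 and FRZB higher in I10 and FGFR4 and IGF2 higher in I79, at medians of 0.06 in each state. Developmental transcription factors held 3 of 32, TBX18 higher in I10 with at most 12 counts in a column, and MSX2 and SIM2 higher in I79. HOX genes, which mark the position a fibroblast comes from, held 0 of 17, with medians of -0.06 and -0.30. Clustered protocadherins held 0 of 32 and cytosolic ribosomal proteins 0 of 39. Imprinted genes held 1 of 20, IGF2. Of all genes described, 0.896% were past 0.6 in both states in the direction of I10 and 0.875% in that of I79. Counts of 0 or 1 in lists of these sizes therefore do not set the lists apart from all genes.

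Most markers of the labelled cell type were well counted in all 4 columns, but TBX4, a transcription factor of lung mesenchyme, had 127 and 245 counts in I79 and I10 young and 4 and 3 in I79 and I10 old. The 12 lung fibroblast markers summed to 27693, 26249, 23028 and 30804 CPM in I79 young, I10 young, I79 old and I10 old. The 10 described had median ratios of -0.07 and 0.02. Of the defining markers of other cell types, 3 of 7 epithelial, 2 of 6 endothelial, 1 of 6 leukocyte and 1 of 5 neural genes passed the filter on low counts, and EPCAM, PECAM1 and PTPRC did not. In the same column order, the epithelial genes that passed summed to 82.5, 90.6, 50.7 and 52.5 CPM. The endothelial genes that passed summed to 95.8, 66.3, 216 and 167 CPM, and the neural gene stood at 0.90, 1.56, 0.05 and 0.11 CPM. The leukocyte gene that passed, CD68, had 335, 445, 2908 and 1529 counts. The 6 smooth muscle and pericyte markers summed to 705, 551, 516 and 736 CPM.

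Medians over chromosomes 1 to 22 and X ran from -0.03 to 0.05 in young and from -0.06 to 0.06 in old. The 17 genes of the mitochondrial genome had medians of 0.03 and 0.25. None of 13685 windows of 31 neighbouring genes had a median past 0.3 of the same sign in both states, and the largest such value was 0.17, on chromosome 15.

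Transcript use differed by at least 40 percentage points of a gene's TPM in the same direction in both states for 6 transcripts of 4 genes, out of 7807 genes with at least 200 counts in each column. SOX6-201 held 46.7% and 45.5% of SOX6 TPM in I79 young and old and 0% in both I10 columns, while SOX6-202 held 14.7% and 17.2% in I79 and 60.2% and 67.4% in I10. CDK19-201 held 47.2% and 41.1% of CDK19 TPM in I79 and 0% in I10. RAB43-205 held 55.4% and 61.8% in I79 and 0% in I10, and TLCD3A-202 17.3% and 27.3% in I79 against 71.2% and 69.9% in I10. A share listed at 0 can be a failed estimate, and how the quantifier divided reads among alike transcripts was not tested.

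The libraries outside the comparison were counted in other ways, so their values stand beside these without a test. In the pair of I79 libraries treated with ICM, an inhibitor of HMGB proteins, FLT1 stood at 0.92 and 0.90 CPM, CORIN at 0.60 and 1.82, and RGS4 at 3.61 and 3.37. COL4A5 stood there at 28.9 and 26.3 CPM and COL4A6 at 5.12 and 6.2. In the pair of WT libraries, whose labels give no isolate, COL4A5 stood at 431 and 446 CPM, COL4A6 at 129 and 125, FLT1 at 11.2 and 14, and RGS4 at 84.7 and 72.0.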

How the data were processed

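Poly(A) RNA of IMR90 isolates I79 and I10, young and old, was sequenced from TruSeq libraries. Per the labels and the file headers, the authors deposited estimated counts and TPM per transcript, 1 table per isolate and state, with IDs of a GENCODE annotation lifted to GRCh37. The quantifier is not given in the sources used here. The submitters' processing notes name STAR 2.6.0c, featureCounts, DESeq2 and GRCh37. For the WT and HMGB2 KD libraries the authors deposited gene-level raw counts (16.9% to 18.0% of them on lines that name no gene, left out here), and estimated counts per gene and region for the ICM libraries.

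Estimated counts were summed per gene through GENCODE v44 on GRCh37 and rounded. Columns held between 14991385 and 20632959 estimated counts, of which 97.2% to 97.4% matched a gene. Reads carry no molecular identifiers, so intervals cover counting error only. The fit across genes used the quasi-likelihood test of edgeR 4.0.16 under R 4.3.3 on passage state and isolate, with TMM scaling, filterByExpr and Benjamini-Hochberg adjustment over all genes, which left 1 residual degree of freedom. The SE is the size of the log2 fold change over the square root of F. DESeq2 1.42.0, other scalings, filters, thresholds and units were alternatives. Simulated counts held 14739 genes passing the filter. There edgeR's test recovered 82% of genes changed by 1.5 on the log2 scale and 96% of genes changed by 3, with 0 false calls. The simulated isolate change was the same in both states, apart from noise at the trend fitted over genes. These shares are therefore not the power of the fit on the real columns.

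The planned rule named called genes, of which there were none. The rule used instead, the genes set apart beside unmatched IDs and the count of genes past 0.6 in both states were settled after the values were seen. The members and lists were chosen with earlier results of these data known. Of the 32 genes that the rule took, 1 is counted but not reported here.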

Additional observations from a re-analysis of the deposited data

Results flagged for a closer look

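The isolate difference pointed in opposite directions in the young and in the old columns for several well-counted genes, of which the 6 with the largest sizes of the smaller ratio are given, among genes with at least 100 counts in the higher column of each state. Each state has 1 column per isolate, so the difference between states was not tested. ACSS3 had a log2 ratio of I10 over I79 of 1.06 in young and -2.11 in old. JAM2 had 1.00 and -0.95, and BAALC 0.79 and -1.21. SERPING1, the C1 inhibitor of complement, had 0.84 in young (355 counts in I79, 784 in I10) and -1.45 in old (3078 and 1105). PRDM8 had 0.73 and -1.19. RGS5, a pericyte marker, went the other way, with -0.90 in young and 0.81 in old.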

How the results depend on the processing

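No paired analysis was possible because the deposited columns carry no replicate number. Against 0 genes called by edgeR's test, leaving out the filter on low counts gave 215 calls (91 higher in I10, 124 in I79), of which 80 were past 0.6 in both states. DESeq2's Wald test gave 14 (5 and 9), and 5 (1 and 4) without the genes beside unmatched IDs, a setting added after seeing the data. Counts stayed at 0 with DESeq2 size factors, plain totals, a mean of at least 50 counts, counts rebuilt from TPM, an adjusted p under 0.05, no passage covariate, protein-coding genes alone and, in edgeR, without the genes set apart. The 129 and 126 genes past 0.6 in both states became 428 and 547 without the filter, 40 and 34 at a mean of at least 50 counts, and 277 and 294 with counts rebuilt from TPM. Plain totals moved the median of all genes in the old columns to -0.09 and gave 111 and 142. For the genes past 0.6 in both states, the filters admit other genes by construction. The cause of the other shifts, and of the 215 calls, was not tested. The direction of the 32 named genes in each state was fixed by the rule that chose them. Its keeping is therefore no sign of stability. Under the alternatives over both states, 41 of their values passed the threshold and 278 did not. Of the 41, 8 were DESeq2 calls and 5 were DESeq2 calls without the genes set apart. The others came from edgeR's test without the filter. The absence of calls thus rests on the filter also for named genes, which were tested with it and without it. Of the check genes, HMGB1 turned sign in the young columns alone (-0.0099, against 0.16 in the old columns alone). With 1 column per isolate and state, no spread within a group is known.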
